A study of Mus musculus with 6 samples.

Results

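Laminins and the glycoproteins that bind them are described here in the cardiac side population (SP), the fraction of heart cells that pumps out the DNA dye Hoechst. The 10 genes were chosen by name from the 50600 genes of the count table: 6 laminin chains (Lama2, Lama4, Lama5, Lamb1, Lamb2 and Lamc1), both nidogens (Nid1 and Nid2), and the heparan sulfate proteoglycans perlecan (Hspg2) and agrin (Agrn). All 10 were among the 13475 protein-coding genes tested, and none of them dropped out at the filter on low values. Their lowest count in any library was 310 reads (Lama2).

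A basement membrane is the thin sheet of matrix under endothelial cells and around muscle cells, pericytes and nerves. Its laminins are trimers of 1 alpha, 1 beta and 1 gamma chain. Many, though not all, are cross-shaped and polymerise on the cell surface, where integrins and dystroglycan hold laminins. Nidogens and heparan sulfate proteoglycans link the laminin sheet to a network of collagen IV. In the heart, such sheets surround each cardiomyocyte and line the capillaries.

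RNA of freshly sorted SP cells was sequenced in 6 libraries, and each library pooled 4 mice aged 8 to 12 weeks. The 3 wild-type (wt) libraries came from C57BL/6NRj mice. The other 3 came from C57BL/6Flt3Ltml/mx mice on a C57BL/6N background, which lack the ligand of the receptor tyrosine kinase Flt3 in every cell and are labelled flt3L-/-. The comparison asks how the absence of this ligand goes along with gene expression in the SP. Hearts were digested, and cardiomyocytes and erythrocytes were depleted before the sort. A wt sort and an flt3L-/- sort shared each sorting date, 22 August 2016 (pair 1), 24 August 2016 (pair 2) and 29 August 2017 (pair 3). The labels name the cardiac SP as the source, and the study's methods describe sorts of the complete SP and of its Sca1+/CD31- fraction. Pecam1, the gene of CD31, was read at 873 to 1524 CPM in the 6 libraries. Separate pools of mice on separate dates are the replicates (n = 3 per group).

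Levels are given in CPM, the counts of a gene relative to the library's sum over the tested genes, scaled between libraries with TMM factors. Total counts lay between 24370913 and 31145519 per library, and 3 counts equal 0.109 to 0.127 CPM, a floor that covers counting error only. Flt3l, the gene of the missing ligand, was read at 8.67, 10.8 and 12.1 CPM in wt and at 13.6, 12.4 and 14.5 CPM in the flt3L-/- labelled libraries. It was higher in 3 of 3 pairs (14.2% of all tested genes), without overlap between the groups (6.45%, in either direction). The fitted log2 fold change was 0.37 ± 0.20 (SE, adjusted p = 0.973 by edgeR's quasi-likelihood test). The position of the deletion is not given in the sources used here, so these reads cannot check the genotype. Markers of several cell types were read in every library. The summed level of 11 endothelial markers lay between 8902 and 14240 CPM, that of 10 fibroblast markers between 10460 and 45470 CPM, and that of 10 pericyte and smooth muscle markers between 276 and 915 CPM, and no marker of these 3 lists was at 0 in any library. In such bulk samples, fewer cells of a type and less RNA per cell cannot be told apart.

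No member passed the test for a difference between the genotypes. The fitted log2 fold change of flt3L-/- over wt ranged from -1.33 (Lama2) to 0.083 (Nid2), and the groups overlapped for all 10 genes (groups without overlap, in either direction, made up 6.45% of the tested genes). edgeR's quasi-likelihood test called 0 of 10 members (0% of all tested genes), with 0 members at an unadjusted p under 0.05 (3.59% of all tested genes) and adjusted p from 0.973 to 0.993. limma-voom also called 0 members, with 0 at an unadjusted p under 0.05 (3.77% of all tested genes). DESeq2 called 0, with 1 at an unadjusted p under 0.05 (4.76% of all tested genes), which was Lama2. The narrowest of the 95% intervals, that of Lamb2, ran from -0.49 to 0.34 on the log2 scale, so the comparison does not show that the genotypes are alike.

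**Figure D1:**
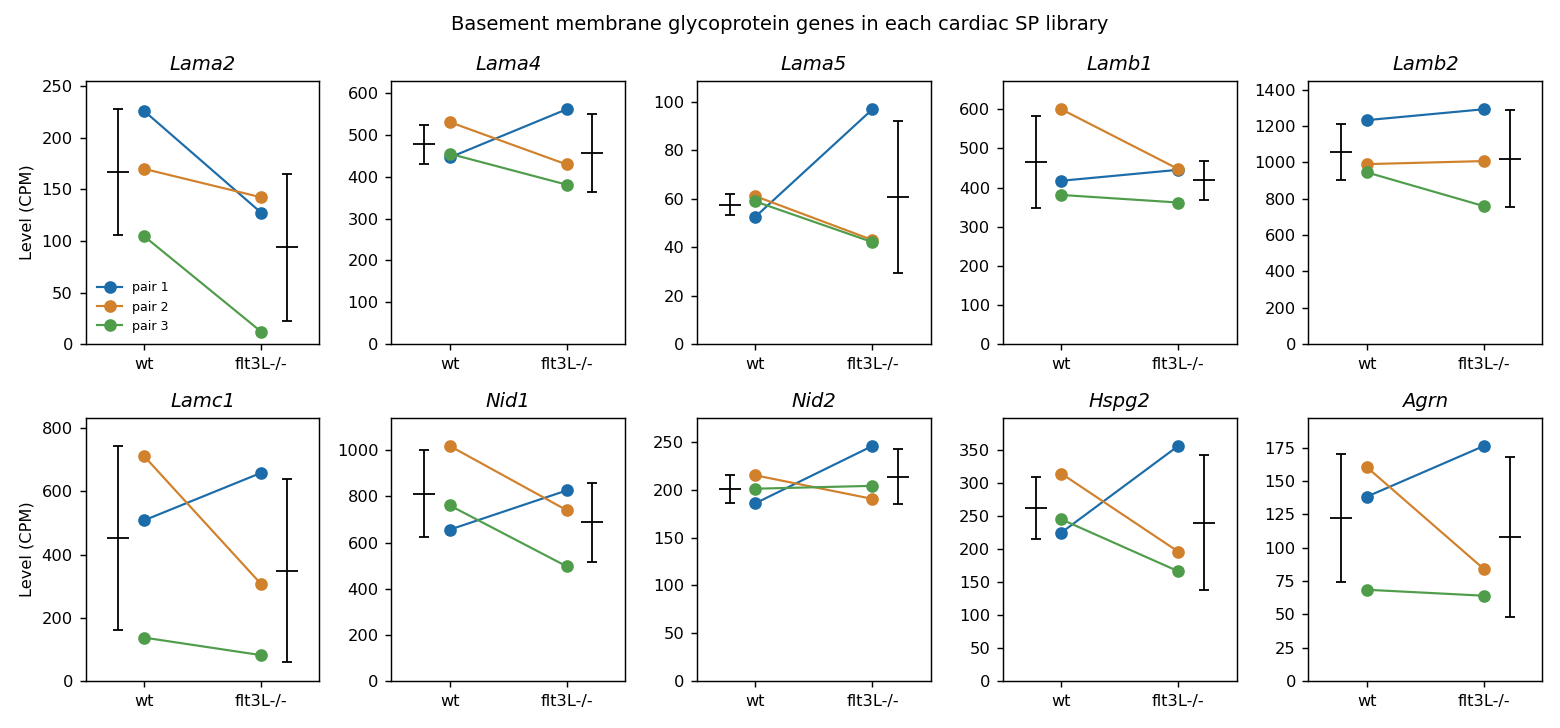
Level of each of the 10 genes (vertical axes, CPM, each starting at 0) in each library, with the wt and the flt3L-/- labelled library of a sorting date joined by a line; black bars give the mean ± SD of each group (n = 3). The groups overlap in every panel, and Lama2 is the 1 gene whose 3 lines all fall. The points of pair 3 are lowest in both groups for Lama2, Lamb1, Lamb2, Lamc1 and Agrn.

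Hspg2 and Lama5 were each other's nearest member in profile, and both were highest in the pair 1 library labelled flt3L-/-. Neither trait was theirs alone. Lama4 and Nid2, and Lamb1 and Nid1, were also each other's nearest members. Lama4, Lamb2, Nid2 and Agrn were also highest in that library. The profile of Lama2 lay farthest from any other member's. The sequences before the transcription start are shown for 3 members, Hspg2, Lama5 and Lama2. They are RefSeq sequences of GRCm38.p6, written 5′ to 3′ on the gene's own strand and ending at the base before the start, and capitals mark the GC box GGGCGG, the letters bound by Sp1-like factors, on either strand (CCGCCC on the other). Lama5 is on the minus strand at chr2:180225860-180226109, Lama2 on the minus strand at chr10:27616943-27617192, and Hspg2 on the plus strand at chr4:137468553-137468768, where the last 34 bases before the RefSeq start are left out because the gene annotation already counts them as exon.
Hspg2: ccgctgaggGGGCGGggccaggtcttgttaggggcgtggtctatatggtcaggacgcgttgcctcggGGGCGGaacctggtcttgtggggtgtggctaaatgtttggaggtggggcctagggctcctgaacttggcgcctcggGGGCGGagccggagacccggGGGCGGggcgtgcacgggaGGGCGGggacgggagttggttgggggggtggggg
Lama5: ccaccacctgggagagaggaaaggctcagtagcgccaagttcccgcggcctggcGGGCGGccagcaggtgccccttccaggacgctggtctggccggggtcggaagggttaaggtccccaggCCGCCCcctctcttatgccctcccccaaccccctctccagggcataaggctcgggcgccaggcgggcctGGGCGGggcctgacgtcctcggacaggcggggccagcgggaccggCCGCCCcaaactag
Lama2: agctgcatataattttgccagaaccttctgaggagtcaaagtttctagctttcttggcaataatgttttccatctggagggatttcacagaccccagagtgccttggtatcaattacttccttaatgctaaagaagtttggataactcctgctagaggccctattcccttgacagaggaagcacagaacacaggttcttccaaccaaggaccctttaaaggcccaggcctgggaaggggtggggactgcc
Hspg2 had 5 GC boxes, Lama5 had 4, and Lama2 had 0 in these stretches. Over all 32851 windows of 250 bases, 32.7% held at least 1 GC box and 4.09% held 4 or more. In the 250 bases, Hspg2 had 20 CpG dinucleotides, Lama5 had 19 and Lama2 had 0, against a median of 6. The Lama2 window lies 2816 bases downstream of the start of the longest annotated gene model. Windows were at hand for 7 of the 10 genes, and Agrn had 12 GC boxes at its annotated start, Lamb1 had 2, Nid1 had 1 and Lamb2 had 0. These matches describe the letters of the windows and were not tested against the levels.

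The alpha chains carry the domains that bind the cell surface, and their 3 genes varied differently between the libraries. Lama2 (ENSMUSG00000019899, GRCm38 chr10:26980036-27619758) encodes the alpha2 chain of muscle laminin, the chain that is missing in merosin-deficient muscular dystrophy. It was measured at 226, 169.7 and 105 CPM in the wt libraries of pairs 1, 2 and 3, and at 127, 142 and 12.3 CPM in the flt3L-/- labelled libraries of the same pairs. The pair 3 library labelled flt3L-/- stood far below the other 5, which overlapped between the groups. Lama2 was lower in 3 of 3 pairs, by 0.83, 0.25 and 3.08 on the log2 scale, and the fitted log2 fold change was -1.33 ± 0.60 (SE, 95% interval -2.91 to 0.24; adjusted p = 0.973 by edgeR's quasi-likelihood test). The fitted value was -0.54 when pair 3 was left out, -1.96 when pair 2 was, and -1.65 when pair 1 was. Lower in 3 of 3 pairs were 1 of the 10 members and 11.5% of all tested genes.

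Fibroblast markers varied with Lama2 in pairs 1 and 3, and so did most pericyte and smooth muscle markers (10 and 9 of 10 lower). The summed level of the fibroblast markers was 45470, 28410 and 22390 CPM in wt and 21840, 33030 and 10460 CPM in the flt3L-/- labelled libraries. Of these 10 markers, 10, 4 and 10 were lower in pairs 1, 2 and 3, and 4 in all 3 pairs. In pair 2 the sum of either marker list was higher in the flt3L-/- labelled library while Lama2 was lower. The part of these cells in the Lama2 values was not tested. Exon bases of Lama2 that another annotated gene shares made up 3.86% of its length, and reads were counted without strand.

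Lama4 (ENSMUSG00000019846, chr10:38965515-39110188), the alpha4 chain of vascular and mesenchymal laminin, was measured at 446, 531 and 455 CPM in wt and at 561, 429 and 381 CPM in the flt3L-/- labelled libraries. The highest and the lowest value both came from the flt3L-/- labelled libraries, and the fitted log2 fold change was -0.077 ± 0.19 (SE, 95% interval -0.56 to 0.41; unadjusted p = 0.695 by edgeR's quasi-likelihood test). Lama5 (ENSMUSG00000015647, chr2:180176373-180225859) encodes the alpha5 chain, found under mature endothelium and epithelia. Its levels were 52.6, 61.1 and 58.9 CPM in wt and 97.0, 43.0 and 42.1 CPM in the flt3L-/- labelled libraries. The 3 wt values lay close together (57.5 ± 4.38 CPM, SD, n = 3), inside the spread of the other group (60.7 ± 31.4 CPM), whose pair 1 library was the highest and whose other libraries were the lowest of all 6. The fitted log2 fold change of Lama5 was -0.043 ± 0.33 (SE, 95% interval -0.89 to 0.81).

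The beta chains spanned narrow ranges, 1.66-fold for Lamb1 and 1.70-fold for Lamb2 over the 6 libraries. Lamb1 (ENSMUSG00000002900, chr12:31265234-31329644), the widely made beta1 chain, was measured at 417, 600.0 and 381 CPM in wt and at 445, 447 and 362 CPM in the flt3L-/- labelled libraries. The wt library of pair 2 stood above the other 5, and the fitted log2 fold change was -0.13 ± 0.16 (SE, 95% interval -0.56 to 0.29). Lamb2 (ENSMUSG00000052911, chr9:108479736-108490530) encodes the beta2 chain of the kidney filter, the neuromuscular junction and vessel walls. Its levels of 1232, 990.2 and 945 CPM in wt and 1292, 1007 and 759 CPM in the flt3L-/- labelled libraries fell in the order of the dates in both groups, and its fitted log2 fold change was -0.074 ± 0.16 (95% interval -0.49 to 0.34).

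Lamc1 (ENSMUSG00000026478, chr1:153218922-153332786) encodes the gamma1 chain, the gamma chain of most laminins. It was measured at 508, 712 and 137 CPM in wt and at 659, 307 and 81.7 CPM in the flt3L-/- labelled libraries. Both libraries of pair 3 were below all 4 others, as they also were for Lama2, Lamb1, Lamb2 and Agrn. How many of all tested genes share this order was not counted. The highest Lamc1 library was 8.72 times the lowest. Between the genotypes the fitted log2 fold change was -0.53 ± 0.34 (SE, 95% interval -1.41 to 0.35; adjusted p = 0.973 by edgeR's quasi-likelihood test), higher in pair 1 by 0.37 and lower in pairs 2 and 3 by 1.21 and 0.75 on the log2 scale.

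The nidogens bind the short arm of the laminin gamma1 chain and tie it to collagen IV and perlecan. Nid1 (ENSMUSG00000005397, chr13:13437551-13512269) was measured at 656, 1019 and 761 CPM in wt and at 826, 740.3 and 497 CPM in the flt3L-/- labelled libraries. The wt library of pair 2 was the highest and the pair 3 library labelled flt3L-/- the lowest, with the other 4 mixed between them, and its fitted log2 fold change was -0.25 ± 0.23 (SE, 95% interval -0.86 to 0.36). Nid2 (ENSMUSG00000021806, chr14:19751265-19811787) was the steadiest member, at 186, 215 and 201 CPM in wt and at 246, 191 and 204 CPM in the flt3L-/- labelled libraries. It was also the 1 member with a fitted log2 fold change above 0, at 0.083 ± 0.16 (95% interval -0.34 to 0.51). Another annotated gene, Rtraf, shares 8.45% of the exon bases of Nid2, and 2.06% of those of Nid1 are shared with Gm48682.

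The proteoglycans carry heparan sulfate chains that hold growth factors in the matrix. Hspg2 (ENSMUSG00000028763, chr4:137468769-137570630), which encodes perlecan, was measured at 225, 314 and 245 CPM in wt and at 356, 196 and 166 CPM in the flt3L-/- labelled libraries. As with Lama4 and Lama5, the pair 1 library labelled flt3L-/- was the highest of the 6. The other libraries of that label were the lowest. The fitted log2 fold change of Hspg2 was -0.20 ± 0.31 (SE, 95% interval -1.001 to 0.605). Agrn (ENSMUSG00000041936, chr4:156165290-156197488) encodes agrin, which binds dystroglycan and laminin and gathers acetylcholine receptors at the neuromuscular junction. Its levels were 138, 160.2 and 68.4 CPM in wt and 176, 83.9 and 63.9 CPM in the flt3L-/- labelled libraries, with both libraries of pair 3 below the other 4, and its fitted log2 fold change was -0.22 ± 0.27 (95% interval -0.94 to 0.49).

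The direction of the difference varied between the pairs for most members. Only 1 of 10 was lower in the flt3L-/- labelled library of pair 1 (45.9% of all tested genes), against 9 of 10 in pair 2 (49.6%) and 9 of 10 in pair 3 (48.8%). The median log2 difference over the members was 0.34 in pair 1, -0.44 in pair 2 and -0.40 in pair 3, where the median over all tested genes was 0.040, 0.0035 and 0.014. Lama4, Lama5, Lamb1, Lamc1, Nid1, Hspg2 and Agrn were each higher in pair 1 and lower in pairs 2 and 3, which makes 7 of 10 members and 13.6% of all tested genes. The fitted log2 fold change was negative for 9 of 10 members (50% of all tested genes), with a median of -0.17 over the members and -0.00027 over all tested genes. This median rested on the pairs: leaving out pair 1 gave -0.51, leaving out pair 2 gave 0.0023, and leaving out pair 3 gave -0.037. Without pair 1, 4 members (Lama5, Lamc1, Nid1 and Hspg2) had an unadjusted p under 0.05 (2.57% of the genes tested in that fit) and 0 were called. Without pair 2 this held for Lama2 alone (7.47%).

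**Figure D2:**
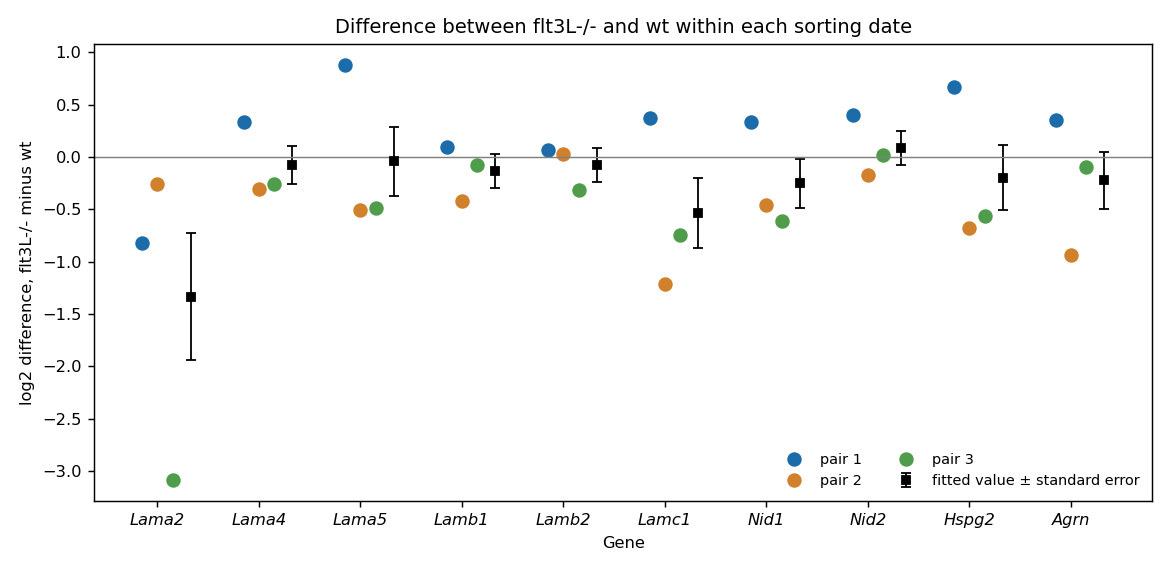
Log2 difference between the flt3L-/- labelled library and the wt library (vertical axis) for each gene (horizontal axis), with 1 coloured point per sorting date and, in black, the fitted log2 fold change ± standard error of edgeR's model. Points of pair 1 lie above 0 for 9 genes, and the point of Lama2 in pair 3 lies lowest, at -3.08.

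The direction also varied between the pairs for marker genes. Endothelial markers summed to 8902, 11660 and 11870 CPM in wt and to 12170, 9612 and 14240 CPM in the flt3L-/- labelled libraries, and 0, 10 and 2 of the 11 were lower in pairs 1, 2 and 3. They thus went the way of most members in pairs 1 and 2 and the other way in pair 3. Pericyte and smooth muscle markers were lower in pair 1 for 10 of 10, in pair 2 for 3 of 10 and in pair 3 for 9 of 10 genes. Macrophage and monocyte markers ranged from 50.2 to 1731 CPM among the wt libraries and from 92.3 to 958 CPM among those labelled flt3L-/-. The part of these cells in the members' differences was not tested.

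Per length, the members spanned a wide range of levels. Divided by the kilobases of annotated exon, Lamb2 had the highest RNA level (170.6 ± 32.2 CPM per kb, SD over 6 libraries), followed by Nid1 (108 ± 25.1). Lamb2 stood above Nid1, and Nid1 above Lamc1, in 6 of 6 libraries. Lamc1 (48.5 ± 32.2), Lamb1 (44.6 ± 8.53), Nid2 (40.1 ± 4.19) and Lama4 (38.7 ± 5.54) came next, and each stood above the following gene in only 3 or 4 of 6 libraries, so their order is not separated from the spread. Hspg2 (17.5 ± 5.04) lay below Lama4 and above Agrn (12.4 ± 5.30) in 6 of 6 libraries. Lama2 (7.98 ± 4.37) lay below Agrn in 6 of 6 libraries and above Lama5 (5.19 ± 1.77) in 4 of 6. The length used matters for these levels. By the longest annotated transcript, a choice made after the values were seen, Lama4 came to 77.3, Lamb1 to 76.4 and Lama2 to 13.6 CPM per kb, so that Lama4 ranked above Lamc1 (52.6) and Lama2 above Agrn (13.4).

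Within the trimer, the gamma chain spanned a wider range over the libraries than the sums of the alpha and of the beta chains, though among single genes Lama2 spanned a wider one still (18.4-fold). Summed per kb of exon, the alpha chains lay between 36.0 and 62.8 CPM per kb over the libraries, a 1.74-fold range, and the beta chains between 161 and 257, a 1.59-fold range. Lamc1 lay between 9.87 and 86.1 CPM per kb, an 8.72-fold range. The ratio of Lamc1 to Lamb1 per kb of exon does not depend on the scaling between libraries. It was 1.46 and 1.77 in the wt and flt3L-/- labelled libraries of pair 1, 1.42 and 0.823 in those of pair 2, and 0.432 and 0.271 in those of pair 3. The ratio was lower in pair 3 than in the other libraries for both groups. Its size depends on the length used, by the same factor in every library. By the longest annotated transcript, the mean of Lamb1 (76.4 CPM per kb) lay above that of Lamc1 (52.6).

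**Figure D3:**
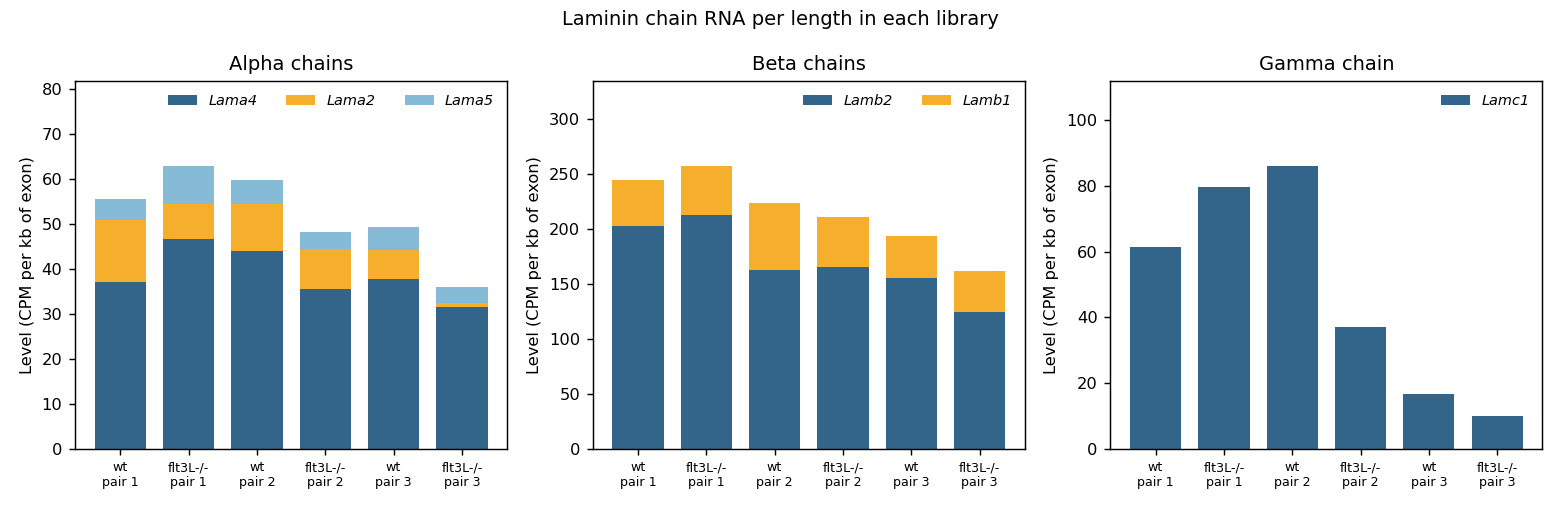
RNA level of the laminin chains per kilobase of annotated exon (vertical axes, CPM per kb, starting at 0) in each of the 6 libraries, with the alpha chains, the beta chains and the gamma chain in separate panels; stacked colours give the single genes. The alpha stack is mostly Lama4 and the beta stack mostly Lamb2 in every library, and Lamc1 stands at 16.6 and 9.87 CPM per kb in pair 3.

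Among the alpha chains, Lama4 made up most of the RNA per length in every library. Its share was 66.7%, 73.6% and 76.5% in wt and 74.0%, 74.0% and 87.7% in the flt3L-/- labelled libraries of pairs 1, 2 and 3, and it was higher in the latter in 3 of 3 pairs. The means were 72.3% ± 5.04 (SD, n = 3) and 78.6% ± 7.86 (n = 3), a difference that did not exceed the spread between libraries of a group (exact two-sided permutation test, p = 0.4, adjusted p = 0.667 over 5 shares). This test leaves the pairing by date out, so it does not measure the spread within pairs. A share can rise without more RNA of that chain. The Lama4 level was 37.0, 44.0 and 37.7 CPM per kb in wt. In the flt3L-/- labelled libraries it was 46.5, 35.6 and 31.6 CPM per kb, so in pairs 2 and 3 it was lower while the share was higher. Lama2 held 25.0%, 17.4% and 13.0% in wt and 12.4%, 18.1% and 2.09% in the flt3L-/- labelled libraries, and Lama5 held 7.85% to 13.6% over all 6 (exact two-sided permutation test, p = 0.4 and p = 0.7). Lamb1 made up 17.2% to 27.1% of the beta chain RNA, with means of 21.4% ± 5.12 in wt and 20.5% ± 2.71 in the flt3L-/- labelled libraries (exact two-sided permutation test, p = 0.9). The size of the shares depends on the length used. By the longest annotated transcript, the means in wt and flt3L-/- labelled libraries were 30.0% and 29.0% for Lamb1 and 78.0% and 84.3% for Lama4. Nid1 made up 72.4%, 77.9% and 73.8% of the nidogen RNA in wt and 71.4%, 74.3% and 64.4% in the flt3L-/- labelled libraries, lower in 3 of 3 pairs by 0.984, 3.59 and 9.37 percentage points (exact two-sided permutation test, p = 0.3, adjusted p = 0.667). With 3 libraries against 3 this test cannot go below 0.1, and with 3 pairs the exact sign-flip test cannot go below 0.25, the value it gave for the shares of Lama4 and Nid1.

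Levels of some members lay far apart between the sorting dates. Both libraries of pair 3 were sorted a year after the others, and 9 of 10 members had their lowest mean log2 level at that date (36.9% of all tested genes). Lamc1 averaged 547 CPM over pairs 1 and 2 and 109 CPM in pair 3, Agrn 139.6 and 66.1 CPM, and Lama2 166 and 58.4 CPM. The means of the 3 dates spanned 2.45 log2 units for Lamc1, 2.24 for Lama2, 1.24 for Agrn and 0.080 for Nid2. In edgeR's quasi-likelihood test of the date term, 0 members were called (0% of all tested genes), and 2, Lamc1 and Agrn, had an unadjusted p under 0.05 (8.28% of all tested genes). By that test the adjusted p was 0.598 for both. DESeq2's likelihood ratio test called 1 member, Lamc1 (adjusted p = 3.7e-06), among 403 genes (2.99% of all tested genes), and limma-voom called 0, with 3 at an unadjusted p under 0.05 (8.11%). All 10 fibroblast markers also had their lowest mean level in pair 3, as did 1 of 11 endothelial markers and 7 of 10 pericyte and smooth muscle markers. Their part in the date differences was not tested.

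Profiles over the libraries were compared by the root mean square difference of log2 CPM, each gene centred on its own mean over the 6 libraries, among 13474 other genes. Hspg2 was nearest to Col4a2 (0.053) and Col4a1 (0.076), the genes of the alpha2 and alpha1 chains of collagen IV, where the median over all genes was 0.48. Col4a1 was measured at 3022, 3970 and 3418 CPM in wt and at 4999, 2554 and 2014 CPM in the flt3L-/- labelled libraries, so it too was highest in the pair 1 library of that label and lowest in the other 2. Lama5 and Hspg2 were each other's nearest members (0.15), as were Lama4 and Nid2 (0.13) and Lamb1 and Nid1 (0.17). Hspg2 ranked only 40 among the genes nearest to Lama5, and Lama5 ranked 41 among those nearest to Hspg2.

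Lama2 had no near neighbour among the members. Its nearest genes were Ltbp2 (0.200), a latent TGF-beta binding protein, and Col22a1 (0.233), a collagen of tissue junctions, and the closest member was Lamc1 (0.81). Col22a1 was scarce, at 1.04 to 3.58 CPM in the other libraries and 0.119 CPM in the pair 3 library labelled flt3L-/-. That last value equals the floor of 3 counts, so the drop of Col22a1 there rests on few reads. Ltbp2 was measured at 79.0, 47.3 and 25.1 CPM in wt and at 39.2, 33.4 and 3.21 CPM in the flt3L-/- labelled libraries, the same order of pairs as Lama2 in wt. Lamc1 was nearest to Aven (0.21) and Ptprs (0.24), Agrn to Smad7 (0.050) and Galnt1 (0.069), and Nid1 to Gigyf1 (0.061) and Map3k14 (0.090). For the other members the nearest genes were Ocrl and Arhgef10 for Lama4, Dock9 and Galnt15 for Lama5, Mtrf1 and Zfp28 for Lamb1, Uso1 and Il1r1 for Lamb2, and Pik3cb and Rras2 for Nid2, all at 0.025 to 0.066. With 6 libraries of 3 dates, such nearness is a description of these samples.

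**Figure D4:**
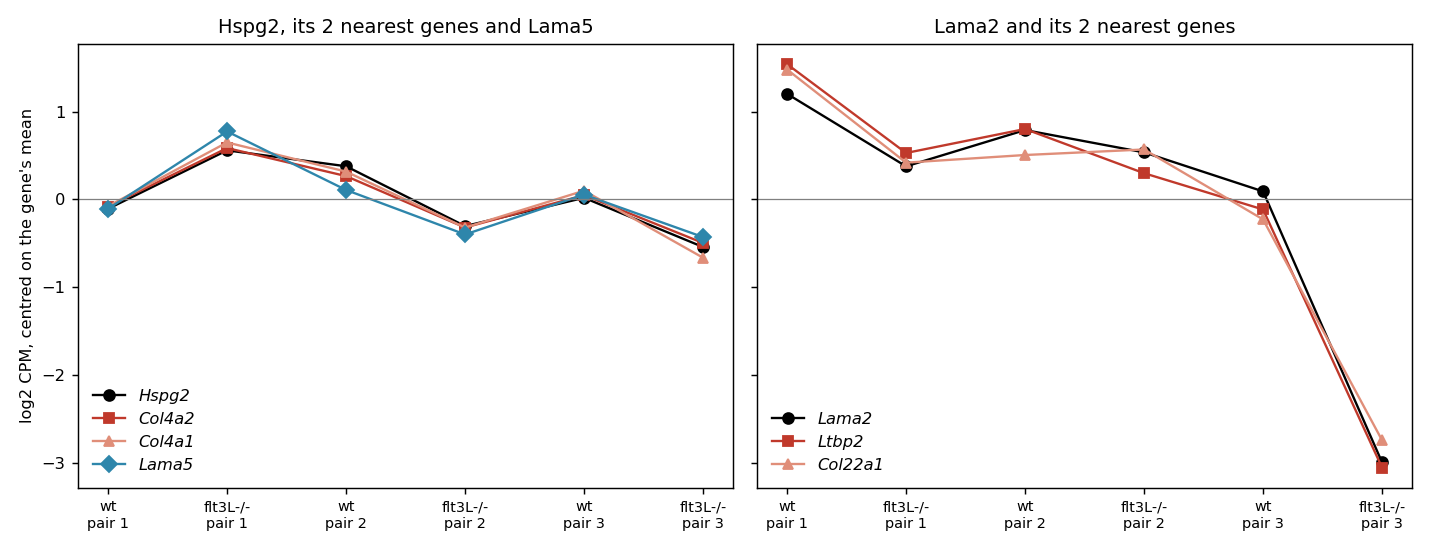
Log2 CPM of Hspg2, its 2 nearest genes and Lama5 (left) and of Lama2 and its 2 nearest genes (right), each centred on the gene's mean, in the 6 libraries in order of pair (horizontal axis); lines only join the points of a gene. The left profiles peak in the pair 1 library labelled flt3L-/-, and the right profiles are lowest, below -2.7, in the pair 3 library of that label. Col22a1 was at the floor of 3 counts in that library.

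Other genes of the basement membrane were counted over fixed lists, in which edgeR's quasi-likelihood test called 0 genes and counts refer to an unadjusted p under 0.05 (2.49% of all tested genes lower and 1.11% higher). The 4 tested laminin chains outside the members had 0 in either direction. Lama3, the alpha chain of epithelial laminin, averaged 41.0 ± 11.02 CPM in wt and 32.5 ± 28.4 CPM in the flt3L-/- labelled libraries (SD, n = 3), and Lamc3 1.54 ± 1.36 and 0.918 ± 0.853 CPM. Lamc3 had 2 counts in the pair 3 library labelled flt3L-/-, below the floor of 3 counts, and 10 counts in the wt library of that pair. Lama1, the alpha chain of early embryonic membranes, had at most 20 counts and was not tested.

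Among the 8 basement membrane collagens, all tested, 2 were lower at an unadjusted p under 0.05 and 0 higher. In 3 of 3 pairs, 3 were lower (11.5% of all tested genes), and the median log2 fold change was -0.61, against -0.00027 over all tested genes. Fibroblast markers had a median of -0.65, with 10 of 10 below 0 and 3 lower at an unadjusted p under 0.05, and their part in the collagen values was not tested. The 2 collagens were Col4a3 (25.4 ± 8.62 CPM in wt, 17.0 ± 10.1 CPM in the flt3L-/- labelled libraries; log2 fold change -0.70 ± 0.21, SE) and Col4a6 (49.4 ± 28.5 and 20.7 ± 13.7 CPM; -1.43 ± 0.44). The abundant chains Col4a1 and Col4a2 gave -0.23 ± 0.35 and -0.16 ± 0.31. Of 14 tested other basement membrane proteins, 2 were lower and 1 higher. Ntn1, the guidance cue netrin-1, was lower in 3 of 3 pairs (-0.49 ± 0.15). Vwa1, a perlecan-binding matrix protein, was higher in 3 of 3 pairs, as were 14.2% of all tested genes (218 ± 42.4 to 295 ± 36.7 CPM, log2 fold change 0.45 ± 0.15). The abundant Sparc and Fbln2 gave 0.19 ± 0.19 and -0.016 ± 0.19.

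Receptors for the members had 0 of 9 tested genes at an unadjusted p under 0.05, and their median log2 fold change was -0.19. Itgb1, the beta subunit of most laminin-binding integrins, was measured at 1370 ± 76.4 CPM in wt and 1498 ± 237 CPM in the flt3L-/- labelled libraries (SD, n = 3), and Bcam, a receptor of the alpha5 chain, at 358 ± 53.9 and 427 ± 48.7 CPM (log2 fold change 0.26 ± 0.19). Lrp4, the agrin receptor at the neuromuscular junction, was lower in 3 of 3 pairs at low levels (4.66 ± 2.68 and 3.07 ± 1.74 CPM; -0.66 ± 0.34). Among 11 tested partners of dystroglycan, 2 were lower and 0 higher, and 4 were lower in 3 of 3 pairs (11.5% of all tested genes). Sgcd, a sarcoglycan, had the smallest p of the list (6.51 ± 2.45 and 3.13 ± 1.40 CPM; -1.10 ± 0.36), while the abundant Utrn, which encodes utrophin, gave 0.16 ± 0.20 and Sgce -0.23 ± 0.22.

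The last lists hold the enzymes that build the sugar chains of these proteins. The 12 tested enzymes of dystroglycan glycosylation, whose glycan binds the alpha2 chain, agrin and perlecan, had 0 at an unadjusted p under 0.05 and a median log2 fold change of -0.057. Pomgnt1 gave 0.076 ± 0.17 and B3galnt2 -0.069 ± 0.17. Pomt1, the mannosyltransferase that starts the glycan, gave -0.21 ± 0.20. Of 19 tested genes for the synthesis and editing of heparan sulfate, 1 was lower and 0 higher, with a median of -0.20. That gene was Hs6st2, a 6-O-sulfotransferase (9.05 ± 2.28 and 5.12 ± 2.02 CPM, log2 fold change -0.88 ± 0.29). Its groups did not overlap, which held for 2 of the 19 genes and, in either direction, for 6.45% of all tested genes. The polymerase subunit Ext2 gave 0.046 ± 0.14, and the extracellular sulfatases Sulf1 and Sulf2 gave -0.41 ± 0.22 and -0.71 ± 0.36.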

How the data were processed

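SP cells of 4 mice per library were sequenced as unstranded polyA RNA libraries (SMART-Seq v4), and reads were mapped to mm10 with STAR 2.5.2a by the authors. The deposited values are raw counts of reads that start in an exon of each of 50600 genes, with multi-mapping reads placed once. Reads were counted without strand, so a read that starts in exons of overlapping genes can count for each of them. Here, protein-coding genes that passed 1 CPM in 2 or more of the libraries were tested with edgeR 4.0.16 (R 4.3.3) with TMM factors and the sorting date as covariate (glmQLFit and glmQLFTest with legacy = TRUE), as in the study's methods, and p-values were Benjamini-Hochberg adjusted over 13475 genes. Pair differences used a prior count of 2. Intervals use 4.79 degrees of freedom. Lengths and positions come from GENCODE M21, which held 50376 of the genes.

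The pairing comes from the sorting dates and the study's methods, and after removal of group means, libraries of the same date correlated at 0.180, 0.104 and 0.116 across genes, against -0.354 to 0.247 for other dates. No 2 libraries were copies (chi-square per degree of freedom of 54.6 or more). Depth gives a floor of 3 counts, 0.109 to 0.127 CPM.

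The members and lists were chosen with earlier results of these data known. Named genes are the members, the 2 nearest genes of each member and, per list, the 2 with the highest mean CPM and the 2 with the lowest genotype p. Ltbp2 is given with its values as such a nearest gene. Some genes that this rule names are not reported here. The test was tried first on simulated counts with large fold changes and a lower dispersion than in these data, so that trial does not tell its power here. Alternatives were DESeq2 1.42.0, limma-voom (limma 3.58.1), edgeR with legacy = FALSE, other scalings and filters, all biotypes, no replicate block, and each pair left out. Shares were tested with exact permutation tests (scipy 1.17.1).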

Additional observations from a re-analysis of the deposited data

How the results depend on the processing

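Of 218 values recomputed under the alternatives, 200 were counted as kept. A fold change was kept with the same sign and the same call, and a share difference with the same sign, whatever their size. So Lama2 counted as kept at -0.54 without pair 3, against -1.33. Counts of genes called were kept when unchanged. Medians and levels per kb were kept within the spread between pairs or libraries, among them the median over the members, whose sign turned without pair 2. With no replicate block, that is with the sorting date left out of the model, 0 genes and 0 members were called, the median over the members was -0.14, and Lama5 turned to 0.077; the block changed no other call or direction, while 262 genes instead of 484 had an unadjusted p under 0.05. The exact sign-flip test over the pairs takes the same differences in the 5 shares, so these entries among the values kept could not come out otherwise. With DESeq2, the genotype called 21 genes, 0 of them members, and the sorting date called 403 genes, 1 of them a member (Lamc1). Leaving out each pair in turn, the date called 0 to 112 genes, the most without pair 2, and 0 members, and the genotype called 0 genes, with 249 to 980 at an unadjusted p under 0.05. The median over the members then ranged from -0.51 to 0.0023. Small fold changes turned their sign: Nid2 ranged from -0.078 (without pair 1) to 0.19, Lama4 from -0.28 to 0.017, Lama5 from -0.50 to 0.19, Hspg2 from -0.62 to 0.032, Agrn from -0.52 to 0.11 and Lamb2 from -0.15 to 0.046, above 0 without pair 2 (Lama4, Lama5, Hspg2, Agrn) or pair 3 (Lama4, Lama5, Lamb2). The difference in the share of Lama5 ranged from -0.677 (without pair 1) to 2.49 percentage points, and that of Lamb1 from -2.71 to 1.52 (without pair 2); the cause was not tested. By the longest transcript, an alternative chosen after seeing the data, the levels per kb of Lama2, Lama4 and Lamb1 were 13.6, 77.3 and 76.4. Across all alternatives the lowest adjusted p of a member for genotype was 0.569 (Lama2 without pair 2), and that of Lama2 ranged up to 0.999. The fit had 2 residual degrees of freedom, the lowest count of a member was 310, and depth was not varied.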
